A study of Homo sapiens with 8 samples.

Results

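The matrix-binding alpha integrin genes were taken as 10 genes: ITGA1, ITGA2, ITGA10 and ITGA11, whose proteins bind collagen, ITGA3, ITGA6 and ITGA7, whose proteins bind laminin, and ITGA5, ITGA8 and ITGAV, whose proteins bind ligands with an RGD motif such as fibronectin and vitronectin. They were chosen by this function and not by any value in the data, though with earlier results of these data known. For each gene, the open chromatin peaks within its body and 50 kb on each side were collected from 8 peak lists (human genome build hg19), which gave 680 of 466883 peaks. Peaks that overlapped between lists were merged, and a merged region found in at least 2 libraries is called a site. The windows of the 10 genes held 104 of the 75501 sites, and another 20 regions with a peak in a single library were left out. The windows of the neighbouring genes ITGA1 and ITGA2 overlap and shared 4 sites, which were counted once in totals.

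The data came from ATAC-seq, in which a transposase inserts adapters into accessible DNA, on wild type LX-2 cells, an immortalised human hepatic stellate cell line. The cells grew on polyacrylamide hydrogels coated with plasma fibronectin that were soft (about 2 kPa) or stiff (about 40 kPa), and were collected after 2 or 4 days. Each combination of day (D2 or D4) and matrix had 2 replicate libraries, giving 4 groups. The study's methods call the replicates of its sequencing experiments biological, while the labels do not say which cultures they came from, and p-values measure the spread between these libraries.

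Integrins are pairs of an alpha and a beta subunit that span the plasma membrane, bind the extracellular matrix outside the cell and connect through talin, kindlin and other adaptors to actin inside. The alpha subunit largely sets which matrix protein is bound. Hepatic stellate cells make collagen in the fibrotic liver and sense its stiffness through such receptors, and the subunit encoded by ITGAV also takes part in the release of active TGF-beta from its latent complex.

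The libraries differed in depth. Depth was estimated from the lists as fragments per kb of genome and was 0.780 and 2.08 in D2 soft, 2.19 to 2.32 in D2 stiff, 2.69 to 2.72 in D4 soft and 2.87 to 3.15 in D4 stiff. The lists held 29789 peaks in D2 soft replicate 1 and 55754 to 72840 in the other libraries. An absent peak therefore says that the authors' caller found none at this depth, not that the chromatin was closed. Of the 20 sites near alpha integrin genes with a peak in exactly 7 libraries, 18 lacked it in D2 soft replicate 1. Promoters of stellate and mesenchymal marker genes had a peak in all 8 libraries for 6 of 13 genes, among them ACTA2, COL1A1 and PDGFRB, and DES, LUM and DCN had none. The 6 genes were 46.2% of these markers, and 47.5% of all protein-coding genes had such a peak in all libraries. Of the markers of other liver cells, 0 of 6 hepatocyte and 0 of 4 endothelial genes had a promoter peak in all libraries, against 1 of 4 biliary and 2 of 5 leukocyte genes (CD68 and CD14), while ALB, HNF4A, VWF, PTPRC, SPI1 and KRT19 had none in any library. The endothelial genes KDR and CDH5 had a promoter peak in 7 and 4 libraries, and the epithelial genes EPCAM and CDH1 in 6 and 5. These counts take any annotated start. At the canonical start alone KDR had a peak in 7 libraries, and CDH5, EPCAM and CDH1 had one in 0. KRT7, the biliary gene with a peak in all 8 libraries, also had 0 at its canonical start.

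The sequences of 5 distal sites and 4 promoters are shown first, and the text below refers to them. The distal sequences are the 201 bases centred on the summit of the best-ranked peak of the site, on the plus strand of hg19. Capitals mark exact matches on either strand to TGACTCA or TGAGTCA, the motif of AP-1 (the family of JUN and FOS), to GGAATG, the motif of TEAD (the partner of YAP), and to GGGCGG, the GC box. The ITGA1 sequence is that of the single site with a peak in every stiff and no soft library, and the others are the strongest distal sites of their genes.
ITGA1 intron, chr5:52155578-52155778: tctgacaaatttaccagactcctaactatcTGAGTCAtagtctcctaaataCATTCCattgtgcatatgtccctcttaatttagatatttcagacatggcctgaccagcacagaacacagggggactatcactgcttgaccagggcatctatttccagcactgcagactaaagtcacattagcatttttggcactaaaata
ITGA5 intron, chr12:54805247-54805447: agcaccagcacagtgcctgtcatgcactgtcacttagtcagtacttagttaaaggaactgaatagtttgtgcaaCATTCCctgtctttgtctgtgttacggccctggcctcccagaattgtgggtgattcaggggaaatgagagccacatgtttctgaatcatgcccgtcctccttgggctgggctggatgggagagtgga
ITGA11 intron, chr15:68682860-68683060: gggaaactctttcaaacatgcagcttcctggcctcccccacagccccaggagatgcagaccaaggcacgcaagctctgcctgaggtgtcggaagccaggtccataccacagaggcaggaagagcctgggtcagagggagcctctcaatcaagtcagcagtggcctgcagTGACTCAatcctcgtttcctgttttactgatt
ITGA2 intron, chr5:52315189-52315389: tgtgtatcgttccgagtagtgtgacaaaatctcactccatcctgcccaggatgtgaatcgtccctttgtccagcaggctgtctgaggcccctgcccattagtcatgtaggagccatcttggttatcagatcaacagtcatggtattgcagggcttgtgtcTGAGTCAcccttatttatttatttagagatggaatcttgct
ITGA6 intron, chr2:173306875-173307075: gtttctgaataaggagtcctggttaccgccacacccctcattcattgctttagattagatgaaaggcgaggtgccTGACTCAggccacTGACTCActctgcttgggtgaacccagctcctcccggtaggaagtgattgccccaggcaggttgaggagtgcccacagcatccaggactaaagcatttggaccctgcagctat

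The promoter sequences are the 150 bases before the first annotated start of each gene, on the strand of the gene. ITGA1 and ITGAV had a promoter peak in all 8 libraries, and ITGA10 and ITGA8 had none in any.
ITGA1 promoter, chr5:52083600-52083749, plus strand: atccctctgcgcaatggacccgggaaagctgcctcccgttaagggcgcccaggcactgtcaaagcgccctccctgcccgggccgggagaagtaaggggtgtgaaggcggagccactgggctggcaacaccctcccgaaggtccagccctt
ITGAV promoter, chr2:187454587-187454736, plus strand: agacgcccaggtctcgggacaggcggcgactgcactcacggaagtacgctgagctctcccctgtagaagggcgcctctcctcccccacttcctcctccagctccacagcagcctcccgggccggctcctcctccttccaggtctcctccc
ITGA10 promoter, chr1:145524819-145524968, plus strand: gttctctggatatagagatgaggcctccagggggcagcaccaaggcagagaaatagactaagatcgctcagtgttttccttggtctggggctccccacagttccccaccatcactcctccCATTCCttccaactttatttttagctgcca
ITGA8 promoter, chr10:15761922-15762071, minus strand: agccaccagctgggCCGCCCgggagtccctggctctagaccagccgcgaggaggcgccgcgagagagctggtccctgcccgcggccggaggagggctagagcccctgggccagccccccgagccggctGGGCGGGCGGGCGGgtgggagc

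Firstly, it was asked at which of these genes the promoter was open. A promoter peak lay within 1 kb of an annotated transcription start of the gene. Such a peak was found in all 8 libraries at 3 of the 10 genes (ITGA1, ITGA3 and ITGAV), in 7 libraries at ITGA2, ITGA5, ITGA6 and ITGA7, in 6 at ITGA11 and in 0 at ITGA10 and ITGA8. Of 20149 protein-coding genes, 47.5% had one in all 8 libraries. Without D2 soft replicate 1, 7 of the 10 genes had a promoter peak in every library, and 58.8% of all genes did. For each gene the strongest peak at its canonical start is given below by its fold enrichment, the ratio of the summit pileup to the background around it in that library. Fold enrichment is strictly comparable within a list only, and the percentile of a peak in its own list (100 for the strongest) is given beside it.

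**Figure D1:**
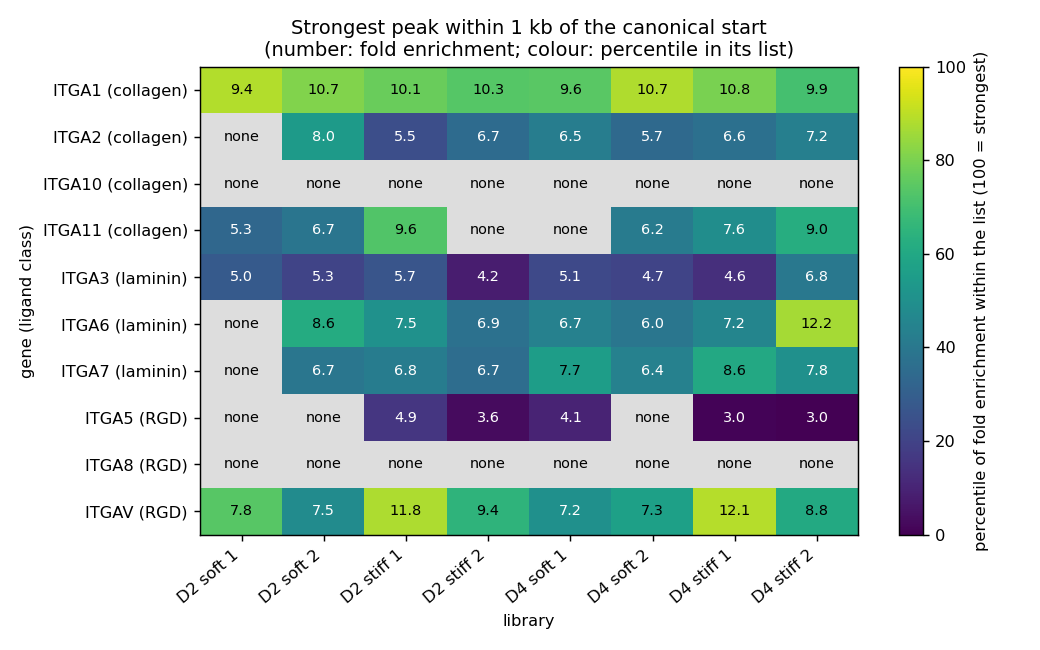
Strongest peak within 1 kb of the canonical start of each gene (rows, with the ligand class) in each of the 8 libraries (columns); the number is the fold enrichment, the colour is the percentile in the list and grey marks a library without a peak. ITGA1 lies between percentiles 70.6 and 88.6 and ITGAV between 48.3 and 89.0, ITGA5 is at or below 16, and ITGA10 and ITGA8 are grey throughout.

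Of the collagen receptor genes, ITGA1 (chr5:52083750-52255039), which encodes a receptor for basement membrane and fibrillar collagens, had the strongest promoter peak. Its fold enrichment was 9.41 and 10.7 at day 2 and 9.55 and 10.7 at day 4 on the soft matrix, and 10.1 and 10.3 at day 2 and 10.8 and 9.94 at day 4 on the stiff matrix. These peaks lay at percentiles 70.6 to 88.6 of their lists, and the soft and stiff libraries overlapped. The site (chr5:52083147-52084620) also covers the starts of PELO, a ribosome rescue factor gene that shares this promoter, and of the antisense RNA PELO-AS1, so the peak cannot be given to ITGA1 alone.

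ITGA2 (chr5:52285170-52390609), a receptor for fibrillar collagen, had promoter peaks of 7.98 in replicate 2 alone at day 2 and 6.49 and 5.68 at day 4 on the soft matrix, and 5.48 and 6.66 at day 2 and 6.59 and 7.17 at day 4 on the stiff matrix. In D2 soft replicate 1 there was a peak of 6.56 in the same merged site (chr5:52283534-52286143), but not within 1 kb of the start. The promoter peaks were in the middle and lower part of their lists, at percentiles 24 to 54.5. ITGA11 (chr15:68588870-68724502), the receptor for interstitial collagens on fibroblasts, had 5.30 and 6.73 at day 2 and 6.17 in replicate 2 alone at day 4 on the soft matrix, and 9.58 in replicate 1 alone at day 2 and 7.58 and 9.04 at day 4 on the stiff matrix. No ITGA11 promoter peak was found in D2 stiff replicate 2 and D4 soft replicate 1, so that the missing libraries were split over both matrices.

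ITGA10 (chr1:145524969-145543868), a collagen receptor best known from cartilage, had 0 promoter peaks in 8 libraries. The 150 bases before its canonical start had a GC content of 53.3% and 1 CpG, against medians of 66% and 12 CpGs over 19856 protein-coding genes. The strongest peak in its window lay within the gene, 17.7 kb from the start, at chr1:145542183-145543229, which also holds the start of a non-coding gene (ENSG00000244619). It had fold enrichments of 13.6 and 13.8 at day 2 and 16.1 and 12.4 at day 4 on the soft matrix, and 11.0 and 16.2 at day 2 and 14.4 and 17.0 at day 4 on the stiff matrix, on average at percentile 96.1 of its lists. The ITGA10 window also covers the starts of many neighbours, and 7 of its 9 sites lay at promoters of other genes.

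Of the laminin receptor genes, ITGA3 (chr17:48133332-48167845), a receptor for basement membrane laminins, had a peak of low fold enrichment at its canonical start in every library. By the caller's p-value (ranks of −log10 p) the same peaks were higher in their lists, at percentiles 46.3 to 89.7. The fold enrichment was 5.02 and 5.34 at day 2 and 5.10 and 4.69 at day 4 on the soft matrix. On the stiff matrix it was 5.66 and 4.23 at day 2 and 4.56 and 6.82 at day 4. The percentiles of fold enrichment were 8.12 to 40.2. A stronger peak lay at an alternative start 8.60 kb into the gene (chr17:48141705-48142450), with 7.99 and 9.24 at day 2 and 7.41 and 6.98 at day 4 on the soft matrix, and 9.15 and 9.10 at day 2 and 7.56 and 8.08 at day 4 on the stiff matrix. In all, 5 of the 12 sites in the ITGA3 window were at its own starts, 3 of them with a peak in every library.

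ITGA6 (chr2:173292082-173371187), a laminin receptor subunit of epithelial hemidesmosomes among other places, had promoter peaks in every library except D2 soft replicate 1. They were 8.61 in replicate 2 alone at day 2 and 6.67 and 6.0 at day 4 on the soft matrix, and 7.46 and 6.88 at day 2 and 7.24 and 12.2 at day 4 on the stiff matrix. The highest, in D4 stiff replicate 2, was at percentile 86.5, while its replicate was at 45.5. ITGA7 (chr12:56078352-56110188), the main laminin receptor of muscle, lacked its promoter peak in the same library and had 6.75 in replicate 2 alone at day 2 and 7.69 and 6.36 at day 4 on the soft matrix, and 6.78 and 6.73 at day 2 and 8.61 and 7.79 at day 4 on the stiff matrix. Soft and stiff libraries overlapped at both genes.

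Of the RGD receptor genes, ITGAV (chr2:187454737-187545628), whose subunit pairs with several beta subunits, had promoter peaks of 7.78 and 7.47 at day 2 and 7.18 and 7.30 at day 4 on the soft matrix, and 11.8 and 9.37 at day 2 and 12.1 and 8.82 at day 4 on the stiff matrix. In fold enrichment every stiff library lay above every soft one. In percentiles, which take the list as a whole into account, the stiff libraries had 87.8, 65.0, 89.0 and 60.7 and the soft libraries 74.0, 48.3, 50.4 and 56.8, so that the groups overlapped. Among the 38 sites of the alpha integrin genes with a peak in every library, 2 had higher fold enrichment in every stiff than in every soft library, the ITGAV promoter and a site 159.6 kb from the ITGA11 start, beyond the 3′ end of the gene, against 9.56% of all 24246 such sites, and 0 were lower in every stiff library, against 0.0577%. Counted by percentile, 0 of the 38 were higher in every stiff library, against 3.62%, and 2 were higher in every soft library, against 0.874%. The latter were the promoters of RDH5 and CD63 in the ITGA7 window.

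ITGA5 (chr12:54789045-54813050) encodes the classical fibronectin receptor subunit, and fibronectin was the coating of these gels. At its canonical start it had no peak at day 2 and 4.10 in replicate 1 alone at day 4 on the soft matrix, and 4.91 and 3.61 at day 2 and 3.04 and 2.96 at day 4 on the stiff matrix. The peak was thus absent from both D2 soft libraries and from D4 soft replicate 2. All peaks found were at or below percentile 16 of fold enrichment, and at percentiles 6.88 to 31.4 by −log10 p. A start inside the gene, 19.6 kb further on (chr12:54793191-54793779), had 8.38 in replicate 2 alone at day 2 and 7.28 and 5.34 at day 4 on the soft matrix, and 8.44 in replicate 1 alone at day 2 and 5.75 and 8.77 at day 4 on the stiff matrix, so that 7 libraries had a peak at some ITGA5 start. ITGA8 (chr10:15555953-15761921), an RGD receptor of mesenchymal cells, had 0 promoter peaks in 8 libraries. Unlike ITGA10, the 150 bases before its start had a GC content of 79.3% and 15 CpGs, and the printed sequence holds several GC boxes, some of them overlapping, and 52.7% of all promoters of this length hold at least 1. The ITGA10 promoter shown above holds a TEAD motif. In the 150 bases before the canonical start ITGA10 and ITGA5 both held one, which 5.35% of all protein-coding genes did.

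The distal sites were described in the same way. Of the 104 sites, 16 were at starts of the 10 genes, 28 at starts of other genes, 6 in exons, 44 in introns of any gene and 10 between genes. A peak in every library was found at 38 sites (36.5%, against 32.1% of all sites), of which 6 were at own starts, 15 at starts of other genes and 17 distal. The distal share was 28.3% of 60 sites, against 25.3% of all distal sites. Without D2 soft replicate 1, 56 sites had a peak in every other library, and over all sites the number went from 24246 to 35578.

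**Figure D2:**
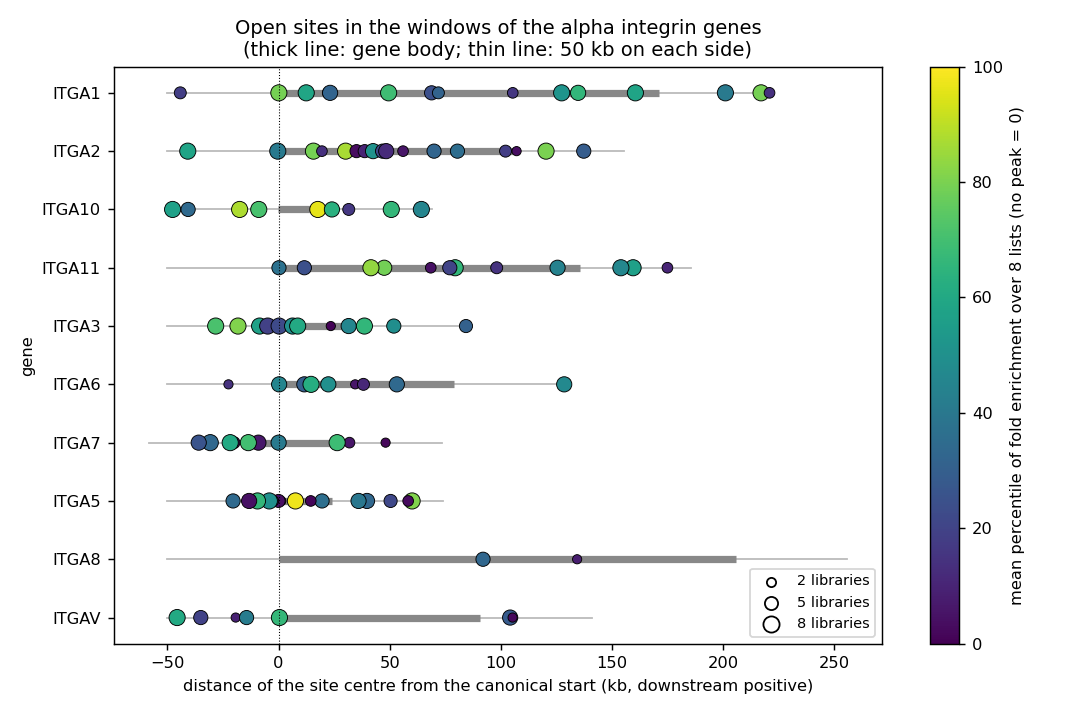
Sites in the 10 windows by the distance of their centre from the canonical start (x axis, kb) and gene (y axis); the size of a point is the number of libraries with a peak and its colour the mean percentile over the 8 lists. ITGA8 holds 2 sites in the longest window, while ITGA5 holds 15 in a short one, with its strongest site 7.59 kb inside the gene.

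The density of sites varied widely among the genes. ITGA5 had 15 sites, or 12.1 per 100 kb of window, a density higher than that of 99.4% of protein-coding genes, and ITGA8 had 2, or 0.654 per 100 kb, which placed it at percentile 6.59. The median gene had 3.93. ITGA3 (8.92 per 100 kb, percentile 94.5), ITGA2 (8.27, percentile 91.9), ITGA7 (7.59, percentile 88.4) and ITGA10 (7.57, percentile 88.4) were above most genes. ITGA1 (5.53), ITGA11 (5.09), ITGA6 (5.02) and ITGAV (3.67) lay between percentiles 45.5 and 71.1. These counts include promoters of neighbours, and the ITGA10 and ITGA7 windows held 10 and 9 other coding genes.

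The strongest distal site of the 10 genes was in an intron of ITGA5, 7.59 kb from its start (chr12:54805138-54805790). Its fold enrichment was 14.1 and 16.3 at day 2 and 14.3 and 14.8 at day 4 on the soft matrix, and 13.4 and 14.0 at day 2 and 15.5 and 14.3 at day 4 on the stiff matrix. The peak was at percentile 94.2 or above in every list, in contrast to the ITGA5 promoter. The sequence around its summit holds a TEAD motif, and no AP-1 motif was found in these 201 bases.

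ITGA2 had its strongest distal site in an intron 30.2 kb from the start (chr5:52315128-52315604). It had 7.85 and 11.5 at day 2 and 12.1 and 11.0 at day 4 on the soft matrix, and 13.0 and 12.8 at day 2 and 10.7 and 13.2 at day 4 on the stiff matrix, and the percentiles ran from 74.8 in D2 soft replicate 1 to 93.2. ITGA11 had a pair of strong intronic sites that both hold an AP-1 motif. At chr15:68682430-68683420, 41.6 kb from the start, the fold enrichment was 7.37 and 12.8 at day 2 and 11.5 and 7.44 at day 4 on the soft matrix, and 12.1 and 11.8 at day 2 and 13.6 and 14.1 at day 4 on the stiff matrix. On day 4 both stiff libraries were above both soft ones, and on day 2 the soft libraries lay on either side of the stiff ones. The neighbour at chr15:68676522-68677388 had 9.09 to 13.9 in 7 libraries and no peak in D2 soft replicate 1.

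In ITGA6 the strongest distal site was in an intron 14.6 kb from the start (chr2:173306533-173307322), and it holds a pair of AP-1 motifs close to each other. It had 5.91 and 9.49 at day 2 and 8.03 and 8.78 at day 4 on the soft matrix, and 8.17 and 10.2 at day 2 and 7.75 and 9.43 at day 4 on the stiff matrix. It was the only one of the 9 ITGA6 sites with a peak in every library. Distal sites with a peak in every library were further found 49.5 kb into ITGA1, where D2 soft replicate 1 had 3.76 and the others 7.54 to 12.5, 18.3 kb before ITGA3 (5.44 to 14.1), 30.7 kb before ITGA7 (4.25 to 7.20) and 45.6 kb before ITGAV (4.38 to 10.9). ITGA8 had its better site in an intron 92.0 kb from the start, with 5.4 to 12.3 in 6 libraries. The best distal site of ITGA10, in an intron of LIX1L, had 5.44 to 8.80 in 6 libraries.

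Of the 60 distal sites, 22 held an AP-1 motif within 100 bp of the summit. This was 36.7% (95% Wilson interval 25.6 to 49.3%, for counting error only), and the share over all 54184 distal sites was 36.5%. The TEAD motif was in 23.3% of distal sites, against 21.8% of all, and 5 sites held both motifs. At the 44 sites near any start, 45.5% held a GC box, against 42.4% of all. The alpha integrin sites were thus close to the background in each of these motifs taken singly. A motif is a match of letters and does not show that a factor was bound.

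Next, it was asked whether sites were open on a single matrix. For each day, a site was counted as stiff-only if both stiff libraries and neither soft library had a peak, and as soft-only in the opposite case. With 2 libraries against 2, such counts have no p-value. On day 2, 10 of the 104 sites (9.62%) were stiff-only, against 7.45% of all 75501 sites, and 0 were soft-only, against 0.391%. On day 4, 3 (2.88%) were stiff-only, against 6.72%, and 2 (1.92%) were soft-only, against 1.31%. The stiff-only share was thus somewhat above that of all sites on day 2 and below it on day 4, with few sites in each count. The stiff libraries were deeper than the soft ones of the same day. Whether depth set these counts was not tested. With all lists shortened to the 29789 best peaks, 1 of 61 sites was stiff-only on day 2 and 1 on day 4. Of all 38346 sites at this setting, 1555 and 1149 were stiff-only. The soft-only sites were 2 on day 2 and 1 on day 4, against 1243 and 1078 of all.

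**Figure D3:**
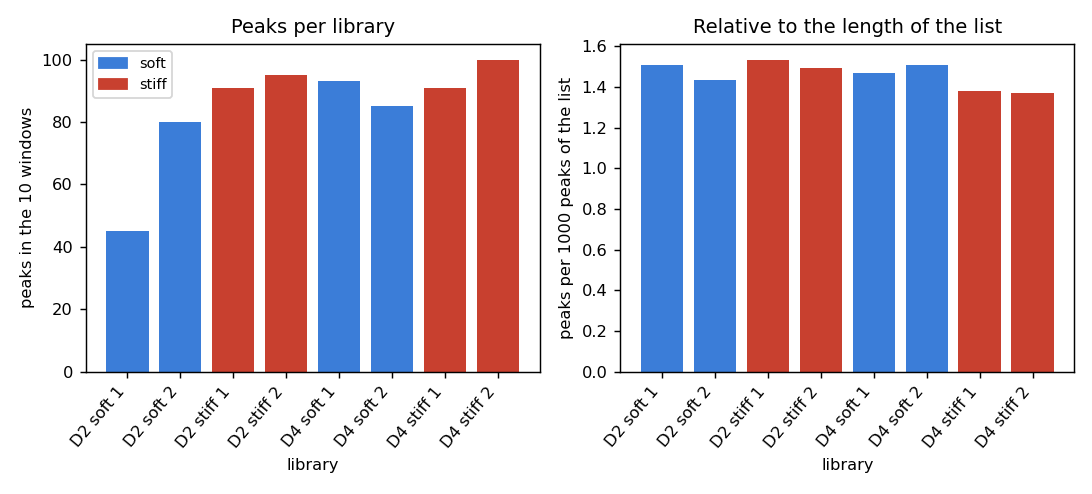
Peaks in the 10 windows (left) and the same per 1000 peaks of the list (right) in each library, with soft in blue and stiff in red. The counts run from 45 in D2 soft replicate 1 to 100 in D4 stiff replicate 2, and the rates from 1.37 to 1.54.

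The number of peaks near these genes followed the length of the list. The windows held 45 and 80 peaks at day 2 and 93 and 85 at day 4 on the soft matrix, and 91 and 95 at day 2 and 91 and 100 at day 4 on the stiff matrix. Per 1000 peaks of the list these were 1.51, 1.43, 1.47 and 1.51 for soft and 1.54, 1.49, 1.38 and 1.37 for stiff. The rate was 1.45 ± 0.0809 (SD, n = 4) on the stiff and 1.48 ± 0.0359 (SD, n = 4) on the soft matrix, and the difference did not exceed the spread of the libraries (p = 0.429 by a two-sided exact permutation test, which with 70 arrangements cannot go below 0.0286). Within day 2 the stiff minus soft difference was 0.0407, and within day 4 it was -0.112, with 2 libraries in each group.

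A single site had a peak in all 4 stiff libraries and in no soft library, against 0.85% of all sites, and 0 sites had the opposite pattern, against 0.0172%. It lay in an intron of ITGA1, 71.9 kb from the start, at chr5:52155513-52155849. Its fold enrichment was 9.98 and 10.2 in D2 stiff and 5.96 and 10.4 in D4 stiff, and the peaks were at percentiles 76.2, 72.1, 29.3 and 74.5. The pileups at the summit, as recovered from the lists, were 20, 21, 14 and 27 fragments, so that the peak was stronger than most in 3 libraries and weaker than most in D4 stiff replicate 1. Its sequence holds both an AP-1 and a TEAD motif, which 5 of the 60 distal sites did. Over all distal sites 36.5% held AP-1 and 21.8% held TEAD. Sites with both were not counted there, so the pair cannot be set against a background. With lists of equal length none of the 61 sites near these genes had peaks in every stiff and no soft library, against 107 of all 38346.

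**Figure D4:**
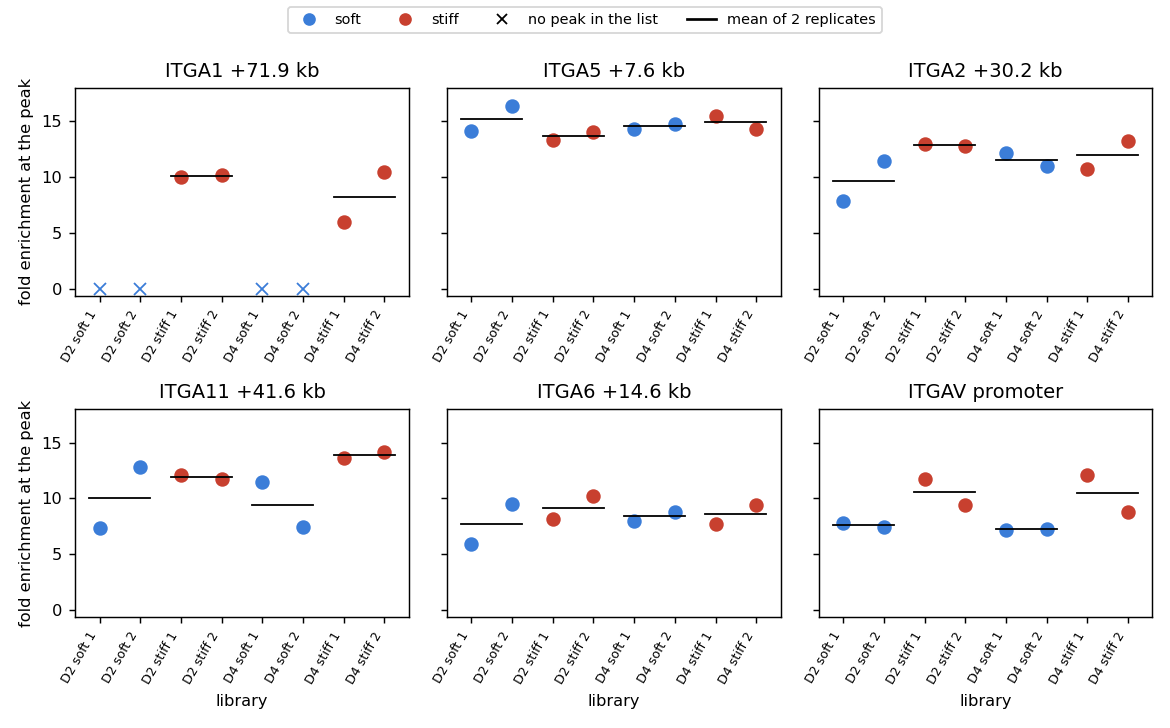
Fold enrichment of the peak (y axis) in each of the 8 libraries (x axis) at 5 distal sites, named by gene and distance from the start, and at the ITGAV promoter; black lines are means of 2 replicates and a cross at the base marks a library without a peak, not a value of 0. The ITGA1 site has peaks only in the 4 stiff libraries, and the ITGA5 site is between 13.4 and 16.3 in all 8.

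The other stiff-only sites of day 2 also had peaks in some day 4 library. The best ranked were a site in an intron of LIX1L 40.7 kb before ITGA10 (chr1:145484151-145484513), with 5.44 and 8.39 in D2 stiff and 5.47 to 8.80 in all 4 libraries of day 4, and a site 46.8 kb into ITGA2 (chr5:52331717-52332271), at the start of a non-coding gene, with 5.42 and 5.74 in D2 stiff and 4.36 to 8.81 on day 4. The canonical ITGA5 promoter was also among these sites. On day 4 the stiff-only sites were the ITGA1 intron and 2 weak sites at ITGA5 starts, 14.5 kb and 1.24 kb into the gene, none of whose peaks rose above percentile 6.74. The soft-only sites of day 4 lay 31.9 kb downstream of the ITGA7 start, with 5.14 and 4.74, and 2.34 kb before ITGA5, with 3.29 and 3.90. On day 2 the former also had a peak in D2 stiff replicate 2, and the latter in D2 soft replicate 1.

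Finally, the 38 sites found in all 8 libraries were compared by rank. All 24246 sites found in all libraries were ranked by fold enrichment inside each library, and the ranks were converted to normal scores, in which 1 unit is 1 SD over sites. limma was fitted to these scores, with Benjamini-Hochberg adjustment over all of the sites. For stiff minus soft on day 2, limma called 0 of the 38 sites (lowest adjusted p = 0.535), against 0.00412% of all sites, and 6 had an unadjusted p under 0.05, 1 higher and 5 lower. On day 4 limma called 0 (lowest adjusted p = 0.921), against 0.00825%, with 1 site at an unadjusted p under 0.05. For the mean of both days limma called 0 (lowest adjusted p = 0.588), against 0.00825%, with 4 sites at an unadjusted p under 0.05, all lower on the stiff matrix. Without D2 soft replicate 1, the shallowest library, 56 sites could be fitted, with 1 library left in D2 soft. The lean toward lower sites at an unadjusted p under 0.05 did not hold in this fit. The median effect of the 56 sites was -0.222 on day 2, -0.0859 on day 4 and -0.179 for the mean of both days. Over all 35578 sites fitted it was -0.00783, -0.0188 and -0.0129. With all libraries the shares of all sites at an unadjusted p under 0.05 were 7.65%, 5.35% and 7.72%.

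**Figure D5:**
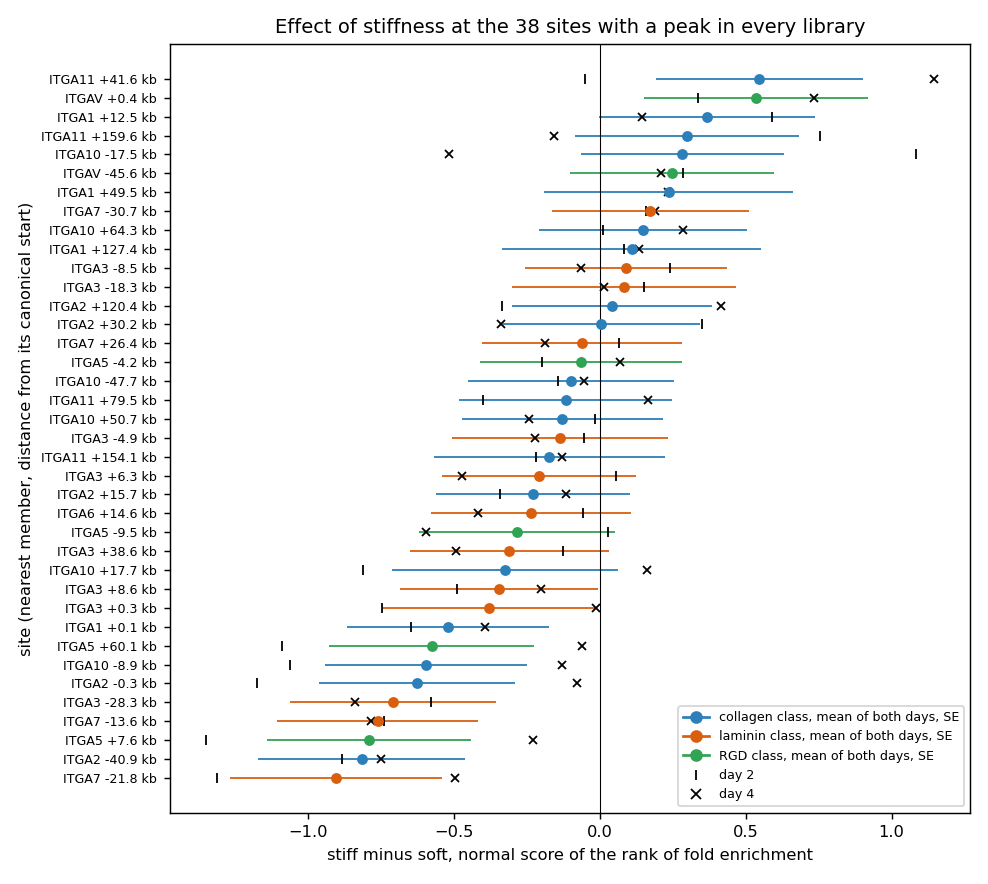
Stiff minus soft difference in the normal score of the rank of fold enrichment (x axis) at the 38 sites found in all libraries (y axis, nearest gene and distance from its canonical start); points are the mean of both days with its SE, coloured by ligand class, with day 2 as bars and day 4 as crosses. The values run from -0.90 at a site 21.8 kb before ITGA7 to 0.55 at an ITGA11 intron, where the days had opposite signs.

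The median stiffness effect over the 38 sites was -0.13, with 14 sites above and 24 below 0, and over all sites it was -0.02. The effect had the same sign on both days at 26 of the 38 sites. Among those, the lowest was at the promoter of CD63 in the ITGA7 window, a gene of a tetraspanin of late endosomes (chr12:56122779-56124131, -0.90 ± 0.36 SE, limma adjusted p = 0.588 after Benjamini-Hochberg). It was followed by an intron at the 3′ end of ITGA1, 40.9 kb before ITGA2 (chr5:52244055-52244599, -0.82 ± 0.36 SE), and by the ITGA5 intron at 7.59 kb (-0.79 ± 0.35 SE). The ITGA5 value came mainly from day 2, where the percentiles were 99.8 and 99.4 in D2 soft against 94.3 and 94.2 in D2 stiff, all near the top of the scale. The highest were the ITGAV promoter (0.54 ± 0.38 SE), a site 12.5 kb from the ITGA1 start (0.37 ± 0.37 SE) and the site 45.6 kb before ITGAV (0.25 ± 0.35 SE), with limma adjusted p-values of 0.776, 0.846 and 0.896 after Benjamini-Hochberg.

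By ligand, the median stiffness effect was -0.10 over 19 sites of the collagen receptor genes, -0.24 over 13 of the laminin receptor genes and -0.17 over 6 of the RGD receptor genes. No test of a difference between these classes was run. Between days, limma called 0 sites for day 4 minus day 2 (lowest adjusted p = 0.678), against 0% of all sites, and 3 had an unadjusted p under 0.05, 2 higher and 1 lower, against 6.91% of all sites. The median day effect was -0.23, with 8 sites above and 30 below 0, against a median of -0.02 over all sites. It was -0.07 without D2 soft replicate 1, with 23 of 56 sites above 0, and -0.05 on ranks of −log10 p, with 16 of 38 above 0. The stiffness effect differed between days at 0 sites by limma (lowest adjusted p = 0.920), against 0% of all sites, with 1 site at an unadjusted p under 0.05, against 5.27% of all sites.

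Other genes of the integrin pathway were compared by the same promoter measure. Of the 8 beta subunit genes, 4 had a promoter peak in all 8 libraries: ITGB1, the partner of most of the alpha subunits described here, and ITGB2, ITGB5 and ITGB8. ITGB3 and ITGB7 had one in 7 libraries, ITGB4, the partner of the ITGA6 product in hemidesmosomes, in 5 (4 stiff and 1 soft) and ITGB6 in 1. At the canonical start ITGB8 alone had a peak in all 8 libraries, ITGB1 and ITGB5 had one in 7 and ITGB2 in 0. Of the 8 other alpha subunit genes, 1 had a promoter peak in all libraries (ITGAX). ITGA2B, ITGA4 and ITGAE had one in 7 libraries, ITGA9 in 5, ITGAL and ITGAD in 1 and ITGAM in 0. At the canonical start ITGAX and ITGA4 kept 8 and 7 libraries, and ITGA2B and ITGAE had 0. All 12 genes of integrin activators and adaptors (among them TLN1, FERMT2, VCL and ILK) had one in all 8 libraries. Against 47.5% of all protein-coding genes, the share was 30% for the matrix-binding alpha subunits, 50% for the beta subunits and 100% for the adaptors. At the canonical start alone the shares were 42.6% of all genes, 30%, 12.5% and 83.3%.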

How the data were processed

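ATAC-seq libraries of LX-2 cells were analysed in 4 groups of 2, grouped by the labels. The authors trimmed reads with TrimGalore, mapped them to hg19 with Bowtie2 (2.4.1 in the submitters' processing notes) and called peaks per library with MACS2 at a q-value up to 0.05; read filters and Tn5 offsets are not given in the sources used here. In the deposited lists the authors give fold enrichment, the ratio of summit pileup to local background within a library. The authors also deposited −log10 p and −log10 q of each peak, the deposited score is 10 times −log10 q, and the deposited summit distance counts from the peak start. Values were ranked within lists, because no counts were used. In 5 of 8 lists the peak names carry another replicate number than the labels.

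The 10 genes, marker lists, named sites and tests were chosen with earlier results of these data known. Named were each gene's best promoter and distal site, sites on all libraries of a single matrix, the 3 best of each single-day pattern, and the 3 largest stiffness effects in each direction with equal sign on both days. Other sites were chosen after their values were seen: the ITGA10 intragenic, ITGA3 canonical and alternative start, ITGA11 second intronic, ITGA11 159.6 kb and RDH5 sites. GENCODE 44 on GRCh37 gave genes. Overlaps of 1 bp merged peaks. Depth assumed MACS2's Poisson model, which returned the deposited values within 1% for 99.9% of peaks. R 4.3.3 with limma 3.58.1, checked on simulated data, and Python 3.11.15 were used. Replicates were not duplicates (0 identical rows, correlation of scores 0.586 to 0.794).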

Additional observations from a re-analysis of the deposited data

Results flagged for a closer look

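The level of the ITGA5 canonical promoter was uneven within the stiff libraries. D2 stiff replicate 1 had this peak at percentile 16 of its list, while the next of the 4 stiff libraries was at 2.86, so that 1 library stood apart from the other 3 by more than Dixon's critical value for 4 samples. Of 20 sets of 4 libraries examined, 1 stood apart in this way, and chance gives about 1 in 20.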

How the results depend on the processing

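The counts of single-matrix sites depended on the lists. With lists of equal length, 1 site was stiff-only and 2 soft-only on day 2, 1 stiff-only and 1 soft-only on day 4, and 0 were in every stiff and no soft library. These were of 61 sites. Of all 38346 sites at this setting, 1555 and 1243 had these patterns on day 2, 1149 and 1078 on day 4, and 107 the last. When 1 replicate was enough for presence, day 2 had 22 stiff-only and 4 soft-only sites of 104, and day 4 had 9 and 6. Of all 75501 sites, 15144 and 4112 had these patterns on day 2, and 10540 and 3341 on day 4. Flanks of 10 kb gave 5 stiff-only sites of 68 on day 2, against 5627 of all 75501. An overlap of at least 50% gave 5 of 104 on day 4, against 8136 of 75501. A q of at most 0.0001 left 1 soft-only site of 94 on day 4, against 555 of 66735. Leaving out each library in turn gave 11 to 35 stiff-only and 0 to 2 soft-only sites on day 2. Without D2 soft replicate 2, 35 of 104 sites were stiff-only, against 21913 of all 73802. Without D2 stiff replicate 1 it was 17 of 101, against 10918 of 73311. On day 4 the stiff-only sites ran from 2 to 10. Without D4 soft replicate 1 they were 10 of 102, against 11329 of 72563. Without D4 soft replicate 2 they were 7 of 102, against 8131 of 73629. Without D4 stiff replicate 1 they were 8 of 103, against 6955 of 71974. From 3 to 4 were soft-only there, 1 to 3 in every stiff and no soft library and 0 to 1 in the opposite. Over all sites the soft-only counts ran from 660 to 3537 on day 2 and 1462 to 2699 on day 4. The last patterns ran from 706 to 1530 and 18 to 127. The cause was not tested.

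The difference in peaks per 1000 turned to 0.0420 with lists of equal length (exact permutation p = 0.657) and ran from -0.0657 to -0.0116 without each library. In limma, leaving out a library leaves 1 library in its group, so calls from those fits are not given. The ITGA1 intron at 49.5 kb had a day 4 minus day 2 effect of 1.70 without D2 soft replicate 2, against 1.02 with all libraries. That fit left D2 soft with the shallowest library. A replicate block gave 0 calls in each limma contrast, against 0 to 2 of all 24246 sites. It gave an exact permutation p of 0.5 for the peaks per 1000 (16 arrangements, smallest possible 0.125), with an unchanged difference of -0.0357. Libraries with the same label number did not deviate together (correlations -0.0414 to 0.0837), so the label numbers were not taken to pair them. The peak names carry other numbers in 5 of 8 lists. Neither this check nor the block could test a pairing by those numbers.

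With lists of equal length, ITGA5, ITGA6 and ITGA11 had promoter peaks in 2 libraries each. With 50 bp around the summit the AP-1 share of distal sites was 23.3%, against 24.6% of all. The use of the canonical start alone, which left ITGA5 a promoter peak in 5 libraries, and the counts without D2 soft replicate 1 were chosen after seeing the data. Peak lists limit what can be said: a site below the caller's threshold has no value, and 2 libraries in a group limit the precision of each comparison.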
